A study of Mus musculus with 13 samples.

Results

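The 9 transcription factor genes of the oligodendrocyte lineage, Olig1, Olig2, Sox10, Nkx2-2, Nkx6-1, Nkx6-2, Myt1, Zfp488 and Myrf, were examined in the ATAC-seq peak lists of 13 oligodendrocyte progenitor cell (OPC) cultures. They were chosen by name as regulators of the lineage, and are 9 of the 55450 genes in the GENCODE M21 annotation of mm10. Each gene was followed at its promoters, taken from 2 kb before to 1 kb after every annotated transcription start, in its gene body and within 100 kb of it. After overlapping peaks of the libraries had been joined, 166 of 99746 merged peaks lay in that territory. Of these 166, 15 touched a promoter window of a listed gene, 15 others a gene body, and 136 were distal.

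ATAC-seq reads open chromatin through insertion of the Tn5 transposase, and the question was how open chromatin at these genes differs between brainstem and dorsal telencephalon OPCs and with the histone mutation H3.3 K27M. Brains came from AMGFAP-Cre;K27M litters at P5 to P7, and tissue was pooled by region and genotype before OPCs were panned on an antibody to PDGFRa after endothelial cells and microglia had been depleted. All cultures were kept in proliferation medium with forskolin, CNTF, neurotrophin-3 and PDGF and were not differentiated. The 4 groups were control brainstem (cultures 51, 59 and 61), K27M brainstem (41, 59 and 61), control telencephalon (51, 59 and 61) and K27M telencephalon (41, 51, 59 and 61). In the study's methods the K27M allele sits at the endogenous H3-3a locus behind a floxed stop and is switched on by hGFAP-Cre, a driver active from neural stem and progenitor cells onward, on an FVB background. Controls were littermates, and the labels do not say which of the alleles each control pup carried. The labels call the telencephalon samples cortex, but the dissection also took corpus callosum and hippocampus. Each library is 1 pool of pups and 1 culture, and p-values for region and genotype take these libraries as units. Those for fold rest on the spread between libraries, shared in part over all features. Those for detection rest only on which libraries had the peak called.

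Olig2 and Olig1 are neighbouring basic helix-loop-helix factors, which bind E-box DNA, and Olig2 specifies the lineage. Sox10, Nkx2-2, Nkx6-2, Zfp488 and Myrf act on the way from precursor to myelinating cell, Nkx6-1 patterns the ventral neural tube where many OPCs arise, and Myt1 is a zinc finger factor of progenitors. Genes of this kind are often controlled by enhancers that lie far from their starts, so distal peaks were read beside the promoters. Distal peaks were assigned by distance alone, and which gene each acts on was not tested.

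The sequences under the peaks that carry the results are given first, read from GRCm38.p6. The shared element, chr16:91246358-91246657, is the 300-base core of the strongest distal peak of Olig1 and Olig2. The Sox10 upstream element, chr15:79202201-79202500, is the core of a strong peak away from any start. Both Nkx6-2 elements, chr7:139545053-139545352 and chr7:139530642-139530941, lie in introns of Inpp5a, and the farther of them was the listed genes' peak that differed most in detection between regions. A core is the middle of the bases covered by the most libraries, all 4 are on the plus strand and none overlaps an annotated exon. The promoters of Olig2, chr16:91225300-91225456 on the plus strand, and Nkx6-2, chr7:139582798-139583047 on the minus strand, are the RefSeq bases before the first annotated exon and are shown for contrast. Capitals mark E-boxes (CANNTG) and the SOX-type word ACAAAG, searched on both strands.
Olig1/Olig2 shared element: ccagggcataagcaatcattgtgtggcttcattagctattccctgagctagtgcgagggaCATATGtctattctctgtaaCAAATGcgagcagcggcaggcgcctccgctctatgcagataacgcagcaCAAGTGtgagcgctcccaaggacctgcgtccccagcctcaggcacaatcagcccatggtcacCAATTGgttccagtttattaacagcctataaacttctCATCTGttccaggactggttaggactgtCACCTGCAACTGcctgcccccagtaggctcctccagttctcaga
Sox10 upstream element: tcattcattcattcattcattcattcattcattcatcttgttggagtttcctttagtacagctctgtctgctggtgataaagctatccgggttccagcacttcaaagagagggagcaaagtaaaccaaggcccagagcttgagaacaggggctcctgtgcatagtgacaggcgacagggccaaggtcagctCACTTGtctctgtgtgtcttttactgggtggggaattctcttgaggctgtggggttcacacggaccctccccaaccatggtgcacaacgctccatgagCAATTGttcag
Nkx6-2 nearer element: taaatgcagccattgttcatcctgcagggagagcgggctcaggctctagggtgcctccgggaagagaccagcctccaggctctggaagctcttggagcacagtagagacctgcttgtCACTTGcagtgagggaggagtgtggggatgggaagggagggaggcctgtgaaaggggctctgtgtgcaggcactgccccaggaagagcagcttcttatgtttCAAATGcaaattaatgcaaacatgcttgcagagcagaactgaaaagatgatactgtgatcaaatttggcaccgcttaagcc
Nkx6-2 farther element: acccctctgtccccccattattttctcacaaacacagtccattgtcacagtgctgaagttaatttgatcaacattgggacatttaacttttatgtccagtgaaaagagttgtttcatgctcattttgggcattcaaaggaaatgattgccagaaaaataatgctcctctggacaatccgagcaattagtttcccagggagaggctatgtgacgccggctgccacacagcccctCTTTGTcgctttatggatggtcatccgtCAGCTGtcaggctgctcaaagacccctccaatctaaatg
Olig2 promoter: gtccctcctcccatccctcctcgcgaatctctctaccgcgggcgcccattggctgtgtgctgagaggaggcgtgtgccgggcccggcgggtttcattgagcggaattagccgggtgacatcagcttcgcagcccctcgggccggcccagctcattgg
Nkx6-2 promoter: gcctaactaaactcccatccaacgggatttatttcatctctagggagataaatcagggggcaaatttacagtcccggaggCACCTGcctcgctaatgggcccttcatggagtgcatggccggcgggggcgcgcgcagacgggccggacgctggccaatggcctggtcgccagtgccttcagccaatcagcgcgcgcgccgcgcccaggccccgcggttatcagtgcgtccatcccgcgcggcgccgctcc
The shared element held 7 E-boxes, against a mean of 1.94 in the cores of 3979 non-promoter merged peaks called in all libraries, 84.7% of which held at least 1. The Sox10 upstream element and the nearer Nkx6-2 element held 2 each, and the farther Nkx6-2 element 1, which is CAGCTG, a form of CANNTG present in 34.0% of those cores. ACAAAG occurred once in the farther Nkx6-2 element and in 39.4% of the cores. Over the 12 non-promoter merged peaks of the listed genes called in all libraries, 8 cores held an E-box and 2 held ACAAAG. In the same 12, CACTTNA, an NK2-type word that can share bases with an E-box, was in 3 against 13.4% of the 3979 cores. CTGGNAC, a MYRF-type word, was also in 3, against 22.3%. TTAATTA (NKX6-type) and AAAGTTT (MYT1-type) were in none, against 5.28% and 3.04%. These are letter matches only.

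Promoter sequence was matched for 6 of the 9 genes, Olig2, Nkx2-2, Nkx6-1, Nkx6-2, Myt1 and Zfp488. Their 250 bases before the RefSeq start were rich in G and C, with a median of 63.4% against 52.0% over 27018 genes. RefSeq and GENCODE starts differ, and the sequences of Olig2, Nkx2-2 and Nkx6-1 overlap GENCODE exons of the same gene. That of Olig2 runs past its GENCODE start, and those of Nkx2-2 and Nkx6-1 lie inside the gene. The values of these genes are therefore not those of sequence wholly upstream of the starts used for the peaks. The ratio of observed to expected CpG had a median of 0.707 against 0.378, and ran from 0.107 at Myt1 to 1.13 at Nkx6-1. An E-box was present in 2 of the 6 sequences, those of Nkx2-2 and Nkx6-2, against 66.1% of all genes, and ACAAAG in none, against 16.5%.

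The lists differed in length, from 16879 peaks in control telencephalon culture 59 to 52466 in control brainstem culture 61, and they hold no read counts, so depth is unknown, fewer open cells and a weaker signal per cell cannot be told apart, and a missing peak means only that none was called. The number of the listed genes' merged peaks per library followed with 34 to 100, and was lowest and highest in the same 2 libraries. OPC identity was checked by promoter peaks: 5 of 6 OPC markers, Pdgfra among them, had one in every library, and Cspg4 in 3. Of 6 markers each, mature oligodendrocytes had 1 in all libraries, astrocytes 2, neurons 3, and microglia and endothelial cells none, with 0 to 3 microglial and 1 to 3 endothelial marker promoters per library. The microglial P2ry12 was nevertheless called in 12 libraries, and the endothelial Flt1 in 11 and Kdr in 10. No library had a peak at 3 of the microglial and 2 of the endothelial markers. Brainstem libraries held 3 to 6 astrocyte marker promoters and telencephalon libraries 2 to 6. Neuron marker promoters numbered 5 to 6 per brainstem library and 3 to 6 per telencephalon library, beside 5 to 6 OPC ones in both. These counts therefore do not tell OPCs from neurons, and the part of other cells in the results was not tested.

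Of the listed genes 5, Olig1, Olig2, Sox10, Nkx2-2 and Myt1, had a promoter peak in all 13 libraries, as did 42.0% of 21951 coding genes. Myrf had one in 11 libraries, Nkx6-1 in 9, Zfp488 in 8 and Nkx6-2 in 6, and no listed gene was without, against 30.6% of coding genes without a promoter peak in any library. The height of a peak is given as fold, its signal relative to the background around it in the same library, and as percentile, its rank by fold within that library's list (100 is the highest). The 5 promoters called everywhere had a median percentile of 40.3, against 75.7 for coding genes of the same kind. Of the 5, Myt1 ranked far above the others, at a mean percentile of 95.7, and Sox10 lowest, at 5.71. Presence in every library depended on the peaks admitted. With lists cut to equal length, Olig1, Olig2 and Myt1 were still called in 13 libraries, Sox10 and Nkx2-2 in 10, Myrf in 4, Zfp488 in 3, Nkx6-1 in 2 and Nkx6-2 in 0. With peaks of p at most 1e-10, Myt1 alone was called in all 13, against 10 for Olig2, 9 for Olig1, 3 each for Nkx2-2 and Myrf, 1 for Sox10 and 0 for the other 3. Apart from the promoters, each gene's highest other merged peak in all libraries and the peaks singled out by the exact test of detection, the peaks named here were chosen after their values were seen.

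**Figure D1:**
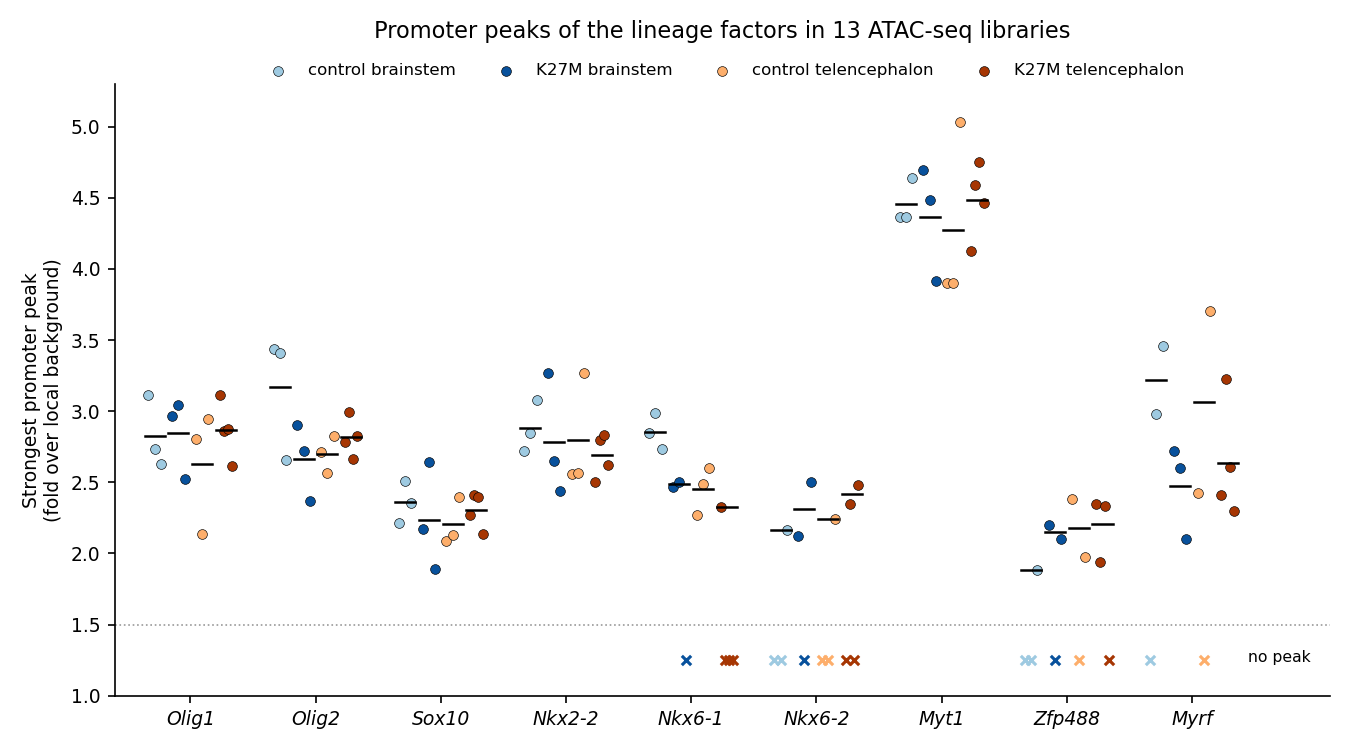
Fold over local background of the strongest promoter peak of each gene (vertical axis, linear) in each of the 13 libraries, grouped by region and genotype. Points are libraries, bars are group means over the libraries with a peak and crosses are libraries without one. Myt1 lies between 3.90 and 5.03, above every value of the other genes.

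Olig2, whose product specifies the lineage, had a promoter fold of 2.84 ± 0.302 (SD, n = 13). The values were 3.44, 3.41 and 2.66 in control brainstem, 2.91, 2.72 and 2.37 in K27M brainstem, 2.71, 2.57 and 2.82 in control telencephalon, and 2.79, 2.99, 2.66 and 2.82 in K27M telencephalon. Control brainstem cultures 51 and 59 lay above all other libraries, and the third control brainstem culture did not. A second merged peak, chr16:91222015-91223628, touched the upstream end of the window in all 13 libraries at a fold of 2.31 ± 0.156.

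Olig1, which promotes maturation, had a promoter fold of 2.80 ± 0.273 (SD, n = 13). It was 3.11, 2.73 and 2.63 in control brainstem, 2.97, 3.04 and 2.52 in K27M brainstem, 2.81, 2.14 and 2.94 in control telencephalon, and 3.11, 2.86, 2.88 and 2.62 in K27M telencephalon. The groups overlapped, and the lowest value was that of control telencephalon culture 59, the shortest list. Without that library the mean was 2.85 ± 0.196.

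The strongest distal peak of both Olig genes was the shared element, chr16:91245716-91247490, which lies between them, 21.2 kb past the start of Olig2 and 23.2 kb before that of Olig1. It was called in all 13 libraries with a fold of 4.17 ± 0.490 and a mean percentile of 91.4. The fold was 3.94, 4.71 and 4.09 in control brainstem, 4.64, 4.88 and 4.13 in K27M brainstem, 3.19, 3.51 and 3.98 in control telencephalon, and 3.83, 4.40, 4.53 and 4.44 in K27M telencephalon. Control telencephalon was the lowest group, with 1 value, 3.98, inside the range of K27M telencephalon. Within 100 kb of Olig1 or Olig2, further merged peaks in every library included chr16:91190934-91193372 (mean percentile 78.0), chr16:91303884-91306258 in Gm15966 (72.0) and the 4224-bp wide chr16:91230080-91234303 (33.3). Of the 25 merged peaks assigned to Olig1 and the 26 assigned to Olig2, 8 each were present in every library.

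Sox10, an HMG-box factor that drives differentiation and myelin gene transcription, had the lowest promoter rank of the promoters called in every library. Its fold was 2.21, 2.51 and 2.36 in control brainstem, 2.17, 2.64 and 1.89 in K27M brainstem, 2.09, 2.13 and 2.40 in control telencephalon, and 2.27, 2.41, 2.40 and 2.14 in K27M telencephalon, and its percentile averaged 5.71 ± 5.95. The groups overlapped throughout. The merged peak over this promoter, chr15:79162602-79167260, was 4659 bp wide, and over all 13075 merged peaks called in every library a wider peak had on the whole a lower fold (Spearman rho -0.37, across peaks, which are not independent replicates). These widths are of peaks joined over the libraries, and the part of width in the rank of this promoter was not tested.

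Upstream of Sox10, inside the gene model Gm10863, 4 merged peaks at 28.0, 37.0, 47.9 and 59.1 kb before the start were called in all 13 libraries. The peak at 37.0 kb, chr15:79201078-79203347, had a fold of 3.52 ± 0.404 and a mean percentile of 73.8, and its neighbour at 28.0 kb, chr15:79192357-79194204, 3.55 ± 0.541 and 73.6. Both were lowest in control telencephalon culture 59, at percentiles of 15.9 and 11.7, and the other 12 libraries lay at 58.5 or above for the first and 57.4 or above for the second. The highest of Sox10's non-promoter peaks in every library, chr15:79062214-79063543 (mean percentile 95.9), sits 102 kb past the start at the promoter of Ankrd54. Of Sox10's 23 distal merged peaks, 11 lay at promoters of other genes.

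Nkx2-2, a homeodomain factor that times the onset of differentiation, has starts in 2 places. The outer start had a fold of 2.78 ± 0.276 in 13 libraries, and the inner one, with its own merged peak chr2:147186277-147189834, 2.17 ± 0.117 in 12. At the outer start the fold was 2.72, 2.84 and 3.08 in control brainstem, 3.27, 2.65 and 2.44 in K27M brainstem, 2.56, 2.57 and 3.27 in control telencephalon, and 2.50, 2.80, 2.83 and 2.62 in K27M telencephalon. No group stood apart. A peak at the far end of the gene, chr2:147180386-147181971, was higher than either start, with a fold of 3.24 ± 0.289 and a mean percentile of 65.3 in all 13 libraries. A narrow distal peak of 443 bp, chr2:147144878-147145320, reached a mean percentile of 92.3 but was called in only 6 libraries, 2 of control brainstem, 1 of control telencephalon and 3 of K27M telencephalon.

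Nkx6-1 had a promoter peak in 6 of 6 control libraries and 3 of 7 K27M libraries. The fold was 2.85, 2.99 and 2.74 in control brainstem, 2.27, 2.49 and 2.60 in control telencephalon, 2.47 and 2.50 in K27M brainstem cultures 41 and 59, and 2.32 in K27M telencephalon culture 41. The other 4 K27M libraries had none in the window, although in K27M telencephalon culture 51 a peak of fold 2.49 lay in the same merged peak outside the window. Of 352 coding genes with a promoter peak in 9 of the 13 libraries, 3, or 0.852%, had it in all 6 control libraries. The controls include control telencephalon culture 59, the shortest list, and the part of list length in this share was not tested. This split was the one seen at Nkx6-1, and the shares of the reverse split and of splits by region were not counted. Fisher's exact test (two-sided), with genes called in 4 to 9 libraries admitted after the data had been seen, gave p = 0.0699 by genotype and an adjusted p of 1 over all genes so tested. The 2 libraries that kept it at equal list length were 1 of control brainstem and 1 of control telencephalon. None of the 10 merged peaks of Nkx6-1 was called in all libraries.

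Nkx6-2, a homeodomain factor of maturing oligodendrocytes, had a promoter peak in 6 libraries, 3 of brainstem and 3 of telencephalon, with folds from 2.13 to 2.50. In contrast the nearer element, chr7:139544528-139546015, 37.5 kb past the start, was called in all 13 libraries. Its fold was 4.51, 3.76 and 5.25 in control brainstem, 4.91, 4.15 and 3.77 in K27M brainstem, 3.83, 3.27 and 5.34 in control telencephalon, and 4.20, 5.12, 3.72 and 4.81 in K27M telencephalon, with a mean percentile of 93.3. Groups overlapped. The other peak in every library, chr7:139615356-139616649, at a Cfap46 promoter, had a mean percentile of 70.9.

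Myt1, a zinc finger factor found in OPCs and neuronal progenitors, had 12 annotated starts, and its high promoter value came from an internal group of them. The merged peak there, chr2:181794960-181796503, 32.4 kb past the first start, had a fold of 4.37, 4.37 and 4.64 in control brainstem, 4.70, 4.48 and 3.92 in K27M brainstem, 3.90, 3.90 and 5.03 in control telencephalon, and 4.13, 4.59, 4.75 and 4.46 in K27M telencephalon. All 13 libraries placed it between percentiles 92.8 and 98.9. At the first start, chr2:181763355-181765047, the fold was 2.55 ± 0.276 and the mean percentile 20.7. The gene body peak chr2:181786899-181788582 lay between these at 3.58 ± 0.529 and 75.9, and chr2:181863381-181865036, at the promoter of Polr3k, reached 76.7.

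Zfp488, a zinc finger partner of Olig2, had a peak in its start window in 8 libraries, at a mean percentile of 4.24. The merged peak that reaches from this window into the gene, chr14:33974400-33979038, was nevertheless present in all 13 libraries with a fold of 3.00 ± 0.386 and a mean percentile of 49.4. A distal peak 95.5 kb past the start, chr14:33882416-33884065, had a mean percentile of 80.5 in 11 libraries.

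Myrf, the membrane-bound factor that myelination requires, had a promoter peak in 11 libraries, missing in control brainstem culture 51 and control telencephalon culture 59. The fold was 2.98 and 3.46 in control brainstem, 2.72, 2.60 and 2.1 in K27M brainstem, 2.42 and 3.70 in control telencephalon, and 2.41, 3.23, 2.61 and 2.30 in K27M telencephalon. Both control brainstem values lay above all 3 of K27M brainstem, while the telencephalon groups overlapped. With 2 missing values this promoter was not in the fit across genes, and it was too widely called for the test of detection. Both peaks near Myrf found in every library lay at other genes' promoters, chr19:10182526-10184532 at Fads1 (mean percentile 69.3) and chr19:10203285-10205335 at Fen1 and Tmem258 (62.4).

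**Figure D2:**
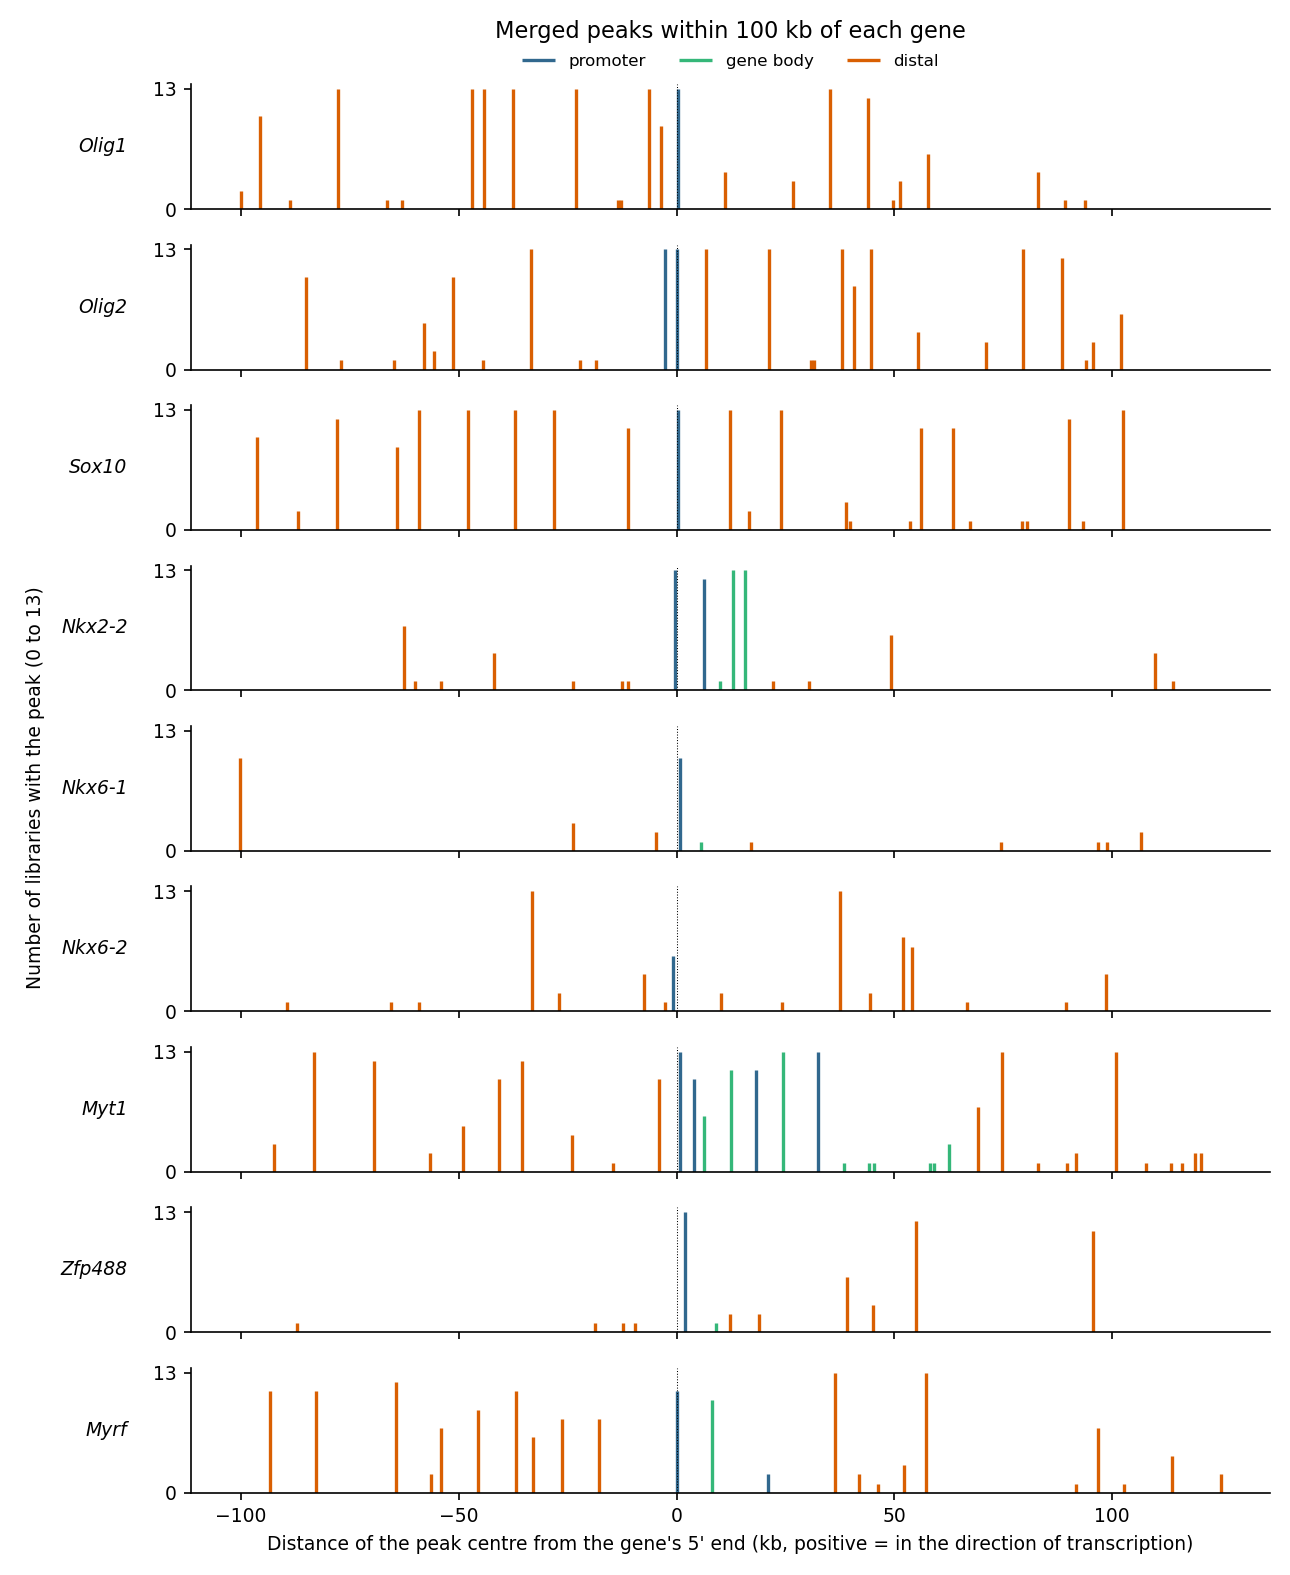
Each vertical line is 1 merged peak, placed by the distance of its centre from the gene's outermost start in kb (horizontal axis, positive in the direction of transcription). Its height is the number of libraries, 0 to 13, that have it, and colour gives promoter, gene body or distal. Olig1, Olig2 and Sox10 have 8 merged peaks each in all 13 libraries and Nkx6-1 has none.

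Promoters and distal peaks were then set against each other within each library, using the strongest distal peak off every gene's promoter windows. The distal peak ranked above the promoter in 13 of 13 libraries for Olig1, Olig2 and Sox10, in 6 of 6 with both for Nkx6-2, in 7 of 7 for Zfp488 and in 3 of 3 for Nkx6-1. It was also higher in 8 of 10 for Nkx2-2 and 9 of 11 for Myrf. Myt1 had the reverse order in 13 of 13, but its first start alone ranked above the distal peak in 1 of 13. Among 3529 coding genes with both kinds of peak in every library, the distal peak was higher in all 13 for 17.9% and the promoter for 12.9%. The mean percentile of the strongest distal peak was 92.0 ± 5.68 for both Olig genes against 40.3 ± 19.3 and 41.3 ± 21.3 at the promoters. For Sox10 it was 79.4 ± 19.9 against 5.71 ± 5.95, and 84.7 ± 6.03 without control telencephalon culture 59. Over all listed genes and libraries the promoter was the higher in 17 of 89 pairs, or 19.1%, and in 22 of 83, or 26.5%, with distal peaks limited to 50 kb. Among the 3529 coding genes the promoter was higher in a median of 6 of 13 libraries. The pairs are not independent: Myt1 alone gave 13 of the 17, and both Olig genes have the same distal value in every library. The strongest of several distal peaks has more chances to rank high than a single promoter, and no test was made.

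**Figure D3:**
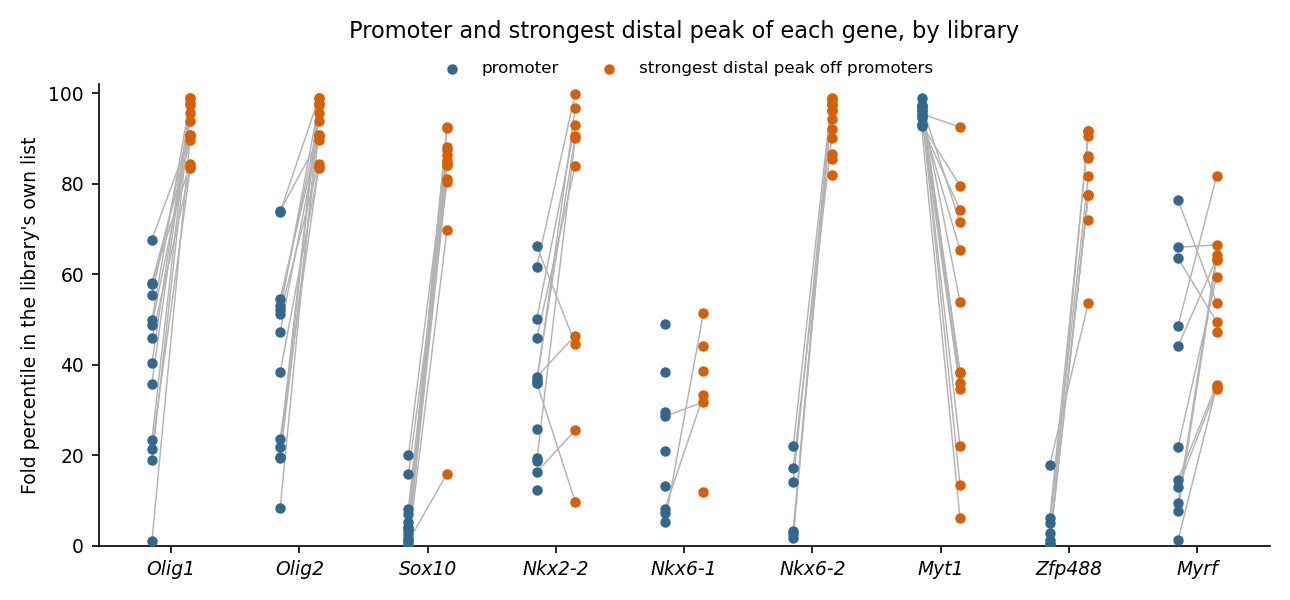
Percentile by fold within the library's own list (vertical axis, 0 to 100) of each gene's strongest promoter peak and strongest distal peak off promoters. Points are libraries, and a line joins both values of 1 library. All lines rise for Olig1, Olig2, Sox10, Nkx6-2, Zfp488 and Nkx6-1, and all fall for Myt1.

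As classes, the 8 promoter merged peaks called in every library had a median percentile of 33.1 (median of the library medians) and the 9 distal ones off promoters 77.5. The classes draw on different genes. The promoter peaks are those of Olig1, Olig2, Sox10, Nkx2-2, Myt1 and Zfp488, the last of which reaches into the gene. The distal ones lie near Olig1 and Olig2, Sox10 and Nkx6-2 only. Over all merged peaks in every library the same values were 76.4 for 9076 at promoters and 78.8 for 3999 away from them. The median width was 1737 bp for the listed promoters and 1733 bp for all promoter merged peaks called in every library. It was 2231 bp for the 9 listed distal peaks and 1524 bp for the 3999 away from promoters.

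Region was compared at the peaks called in every library by limma on log2 fold, centred per library, with culture number as a block and Benjamini-Hochberg adjustment over all features. None of the 5 promoters passed (0.0174% of 11483 promoters did). Brainstem minus telencephalon ran from -0.07 at Myt1 to -0.00 at Olig2 on the log2 scale, and the 95% intervals of the 5 together spanned -0.21 to 0.16. Of the 30 merged peaks none passed either (0.0229% of 13075 did). Of the 30, 3, or 10.0%, had an unadjusted p under 0.05, against 6.36% of all. All 3 were lower in brainstem: the Nkx2-2 gene body peak chr2:147180386-147181971 by -0.17 (unadjusted p = 0.0357, limma), chr2:181837358-181838798 at Pcmtd2 near Myt1 by -0.16 (0.0333) and chr15:79151580-79154577 at Polr2f near Sox10 by -0.14 (0.0434), each with an adjusted p from 0.746 to 0.764.

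Genotype was compared in the same fit. None of the 5 promoters passed (0.0% of 11483 did, and 4.35% had an unadjusted p under 0.05, but none of the 5). K27M minus control was -0.13 at Olig2 (95% interval -0.30 to 0.05), -0.12 at Nkx2-2 (-0.27 to 0.03), -0.04 at Sox10 (-0.19 to 0.11), -0.02 at Myt1 (-0.16 to 0.13) and 0.03 at Olig1 (-0.15 to 0.20). None of the 30 merged peaks passed (0.0% of 13075 did), and 2, or 6.67%, had an unadjusted p under 0.05, against 4.48% of all. The shared Olig1/Olig2 element chr16:91245716-91247490 was higher in K27M by 0.17 (0.01 to 0.33, unadjusted p = 0.0380, adjusted p = 0.999, limma). The peak 59.1 kb before Sox10, chr15:79223203-79225433, was lower by -0.20 (-0.37 to -0.02, unadjusted p = 0.0265, adjusted p = 0.999). Neither is a call, and the intervals of the 30 peaks together spanned -0.37 to 0.33.

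**Figure D4:**
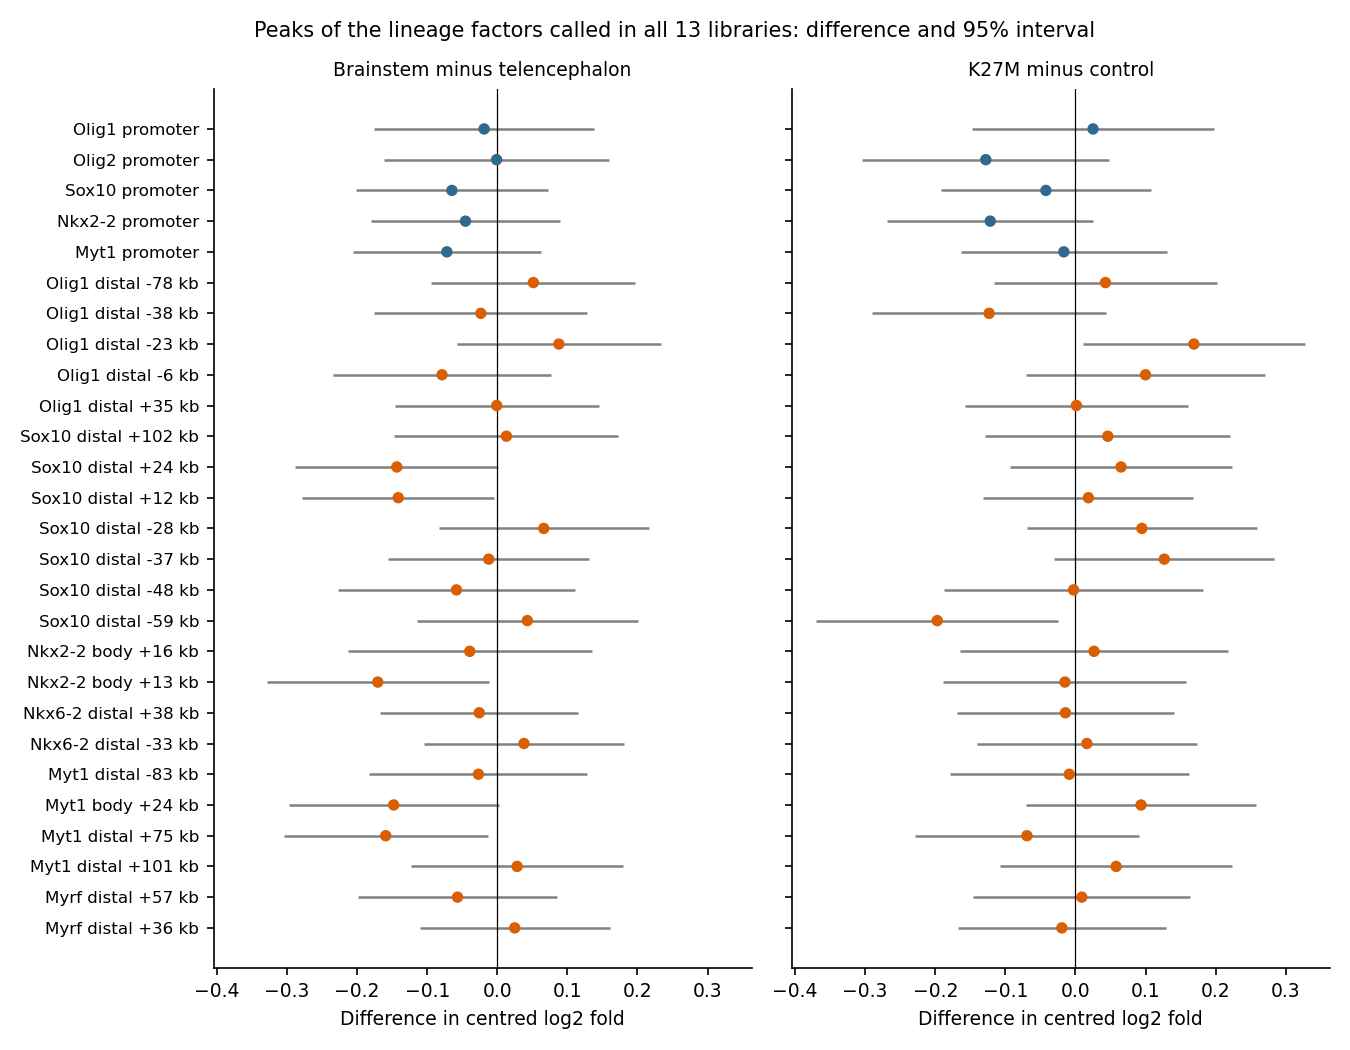
Difference in centred log2 fold (horizontal axes) at the 5 promoters (blue) and the 22 other merged peaks (orange) of the listed genes that were called in all 13 libraries, brainstem minus telencephalon on the left and K27M minus control on the right. Points are limma estimates and lines 95% intervals. Distances in kb are from the gene's outermost start. The estimates lie between -0.20 and 0.17.

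The within-genotype and within-region comparisons and the interaction of region and genotype, which share samples with these and with each other, gave no call at a listed gene either. Over all 11483 promoters the calls were 0.0261% for region in K27M and 0.0% for the others. No listed promoter had an unadjusted p under 0.05, against 4.77% of promoters for region in control, 3.74% for region in K27M, 3.82% for genotype in brainstem, 4.14% for genotype in telencephalon and 3.77% for the interaction. At the 5 promoters K27M minus control ranged from -0.21 to 0.03 in brainstem and from -0.16 to 0.02 in telencephalon. Brainstem minus telencephalon ranged from -0.09 to 0.09 in control and from -0.09 to -0.00 in K27M. At Olig2 the brainstem difference between genotypes was -0.21 (95% interval -0.47 to 0.04) and the interaction -0.17 (-0.49 to 0.15, unadjusted p = 0.283, adjusted p = 1.00, limma). Among the 30 merged peaks the unadjusted p was under 0.05 for none by region in control (4.91% of 13075), region in K27M (5.12%), genotype in brainstem (4.5%) or the interaction (3.97%), and for 2, or 6.67%, by genotype in telencephalon (4.06%). These 2 are the peaks already named for genotype, with K27M minus control in telencephalon of 0.21 at the shared Olig element (95% interval 0.00 to 0.41, unadjusted p = 0.0450, adjusted p = 0.999, limma) and -0.24 at the Sox10 peak 59.1 kb before the start (-0.46 to -0.02, 0.0319 and 0.999).

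Detection was compared where a peak was called in 5 to 8 libraries, by two-sided Fisher's exact tests adjusted over all such features. The Nkx6-2 promoter (called in 6 libraries, 3 from each region) and that of Zfp488 (brainstem 3, telencephalon 5) did not pass by region or genotype (0.0% of 1815 promoters did, and 2.15% had an unadjusted p under 0.05 by region and 1.21% by genotype, but neither of these). Of 16 merged peaks tested none passed (0.0% of 11706 did). The smallest p this test can give here is 0.000583, so no single promoter or peak could pass the adjustment alone. The lack of calls therefore does not show equal detection between the groups. Of the 16, 1, or 6.25%, had an unadjusted p under 0.05 by region, against 2.36% of all, and none by genotype, against 1.26%.

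That peak was the farther Nkx6-2 element, chr7:139530327-139531253, 52.0 kb past the start. It was called in 3 of 3 control brainstem and 3 of 3 K27M brainstem libraries, in 2 of 3 control telencephalon libraries and in 0 of 4 K27M telencephalon libraries (exact p = 0.0210, adjusted p = 1). With this number of calls no split could favour brainstem more. The exact p was thus the lowest possible in that direction, and the adjusted p does not measure a lack of difference. The fold was 2.54, 3.35 and 3.85 in control brainstem and 3.93, 3.10 and 2.88 in K27M brainstem, but 2.31 and 2.77 in the control telencephalon cultures 51 and 61. With lists cut to equal length 5 brainstem libraries of 6 had it and none of 7 from telencephalon (exact p = 0.00466, adjusted p = 0.253, with 5.82% of 4229 peaks under an unadjusted 0.05). Among K27M libraries alone it was present in all brainstem and no telencephalon libraries, as were 0.681% of 10430 merged peaks called in as many of those libraries as one side has. The reverse pattern, telencephalon only, held for 1.74% of them, and either for 2.43%. No other merged peak of the listed genes separated the compared groups in this way. Among all merged peaks whose number of calls equalled the size of either group, the shares that did were 0.122% by region (0.0872% in brainstem only and 0.0349% in telencephalon only) and 0.0349% by genotype, all in K27M only. Within one genotype or region they were 4.11% by region in control (3.77% brainstem only, 0.345% telencephalon only), 3.76% by genotype in brainstem (0.883% K27M only, 2.87% control only) and 1.75% by genotype in telencephalon (1.61% and 0.14%).

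The next merged peak, chr7:139528514-139529130, begins the other side of a gap of 1196 bp and was called in 4 of 4 K27M telencephalon libraries and in 1 of 3 of each other group (exact p = 0.286 by region and by genotype, adjusted p = 1). Its fold in K27M telencephalon was 2.69, 2.76, 3.02 and 2.34. The adjoining elements had opposite patterns in the K27M telencephalon libraries, and the nearer element, within the same gene, was called in every library.

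**Figure D5:**
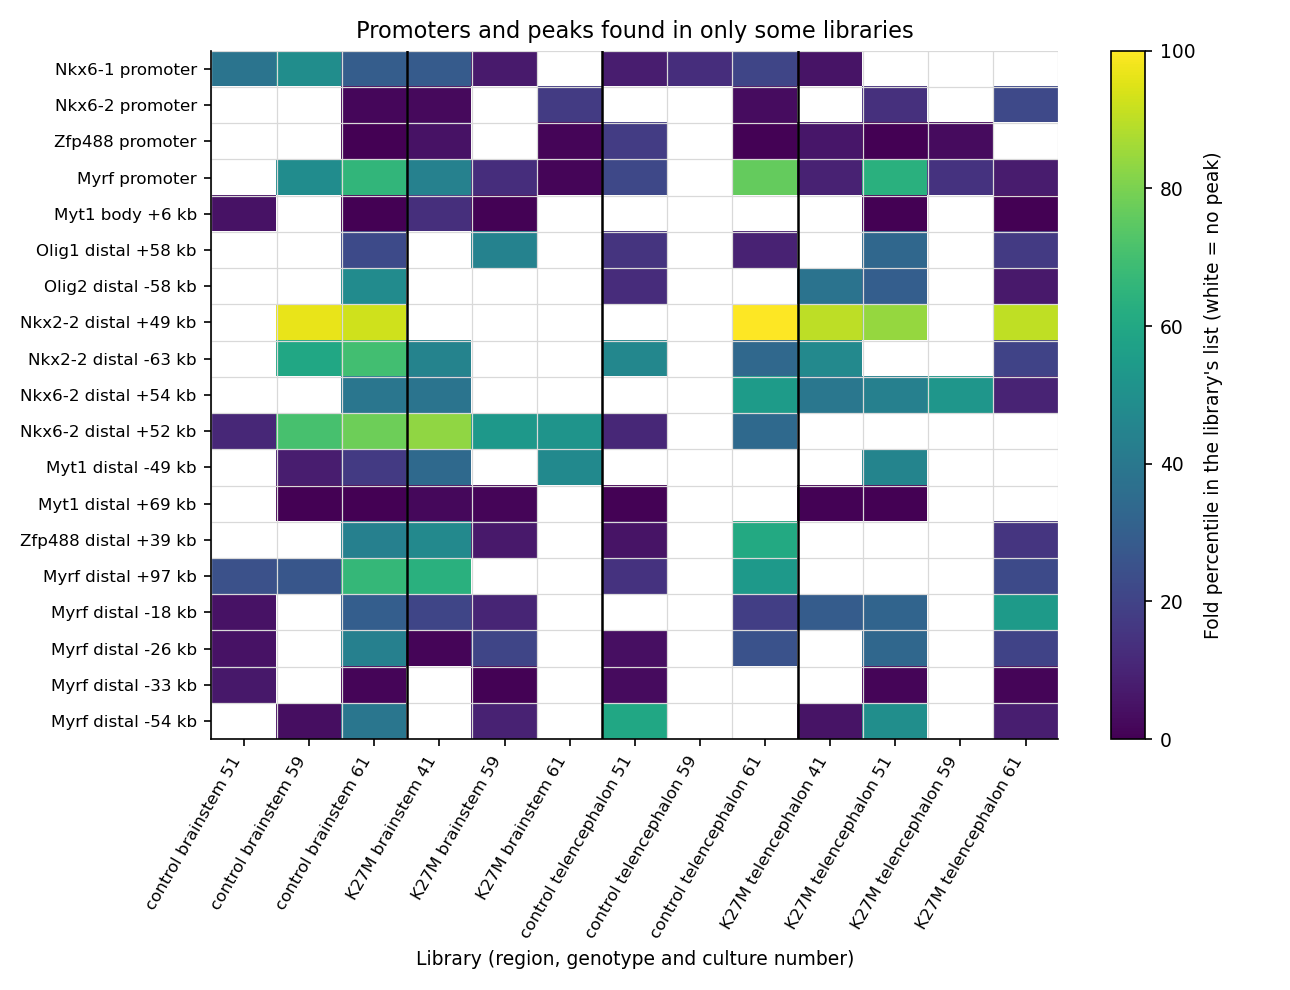
Libraries (columns, by group and culture number) against the 4 promoters and the other merged peaks of the listed genes called in 5 to 8 libraries (lines, with the distance from the start in kb). Colour is the percentile by fold in the library's own list, and white means no peak. The Nkx6-2 peak 52 kb past the start fills all 6 brainstem columns and 2 of 7 telencephalon columns, and control telencephalon culture 59 has a peak only at the Nkx6-1 promoter.

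At equal list length 11 merged peaks of the listed genes could be tested, and 3 of them, or 27.3%, had an unadjusted p under 0.05 by region, against 5.82% of all 4229. None passed after adjustment, which no single peak could do alone here either. The first of the 3 was the farther Nkx6-2 element. The second, near Zfp488, chr14:33882909-33883518, was found in all 6 from brainstem and 2 of 7 from telencephalon (exact p = 0.0210, adjusted p = 0.501). The third, near Olig1 and Olig2, chr16:91314093-91314820, was called in 5 of 6 and 1 of 7 (exact p = 0.0291, adjusted p = 0.501). With full lists the merged peaks around the second and the third were called in 6 and 5 and in 6 and 6 libraries of brainstem and telencephalon, which is outside the range tested for detection. By genotype none of the 11 had an unadjusted p under 0.05, against 3.14% of 4229.

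The other lineage regulators, a list of 35 further transcription and chromatin factors, were described in the same way. Promoter peaks were present in all 13 libraries for 28 of them, against 42.0% of coding genes, and in none for 0, against 30.6%. The median percentile was 56.0, against 75.7 for coding genes called in all libraries. Highest were Chd8 (97.0 ± 2.06), a chromatin remodeller, and Zfp24 (92.0 ± 5.49), a zinc finger regulator of myelination. The lowest was Sox8 (2.15 ± 2.2), a relative of Sox10. None of the 28 passed by region or genotype, and 2 had an unadjusted p under 0.05 by region (7.14%, against 5.08% of all 11483 promoters) and 0 by genotype. For region in K27M, genotype in brainstem and the interaction it was 2 each (7.14%), against 3.74%, 3.82% and 3.77% of all, and none passed.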

How the data were processed

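ATAC-seq broad-peak lists of 13 libraries were used. Per the labels, reads were trimmed with Trim Galore 0.6.7 (cutadapt 3.4) and aligned to mm10 with BWA 0.7.17-r1188, and per the study's methods blacklisted regions were removed within nf-core. The authors called broad peaks per library with MACS2 2.2.7.1, and the lowest deposited −log10 q was 1.0, a q-value of 0.1. The study states a broad cutoff of 0.1 with its ChIP-seq commands, and none separately for ATAC-seq. The deposited values are the fold over local background (a ratio, not scaled between libraries), the −log10 p-value and the −log10 q-value of each peak, and a score, which was not used.

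Peaks of all libraries overlapping by at least 1 bp were merged. Where several peaks of a library met a promoter or merged peak, the strongest was taken. Log2 fold, centred on each library's median, was fitted with limma 3.58.1 (R 4.3.3) for features called in all 13 libraries. The fit was over 4 groups with culture number as a block, which leaves 6 residual degrees of freedom. The spread of each feature was moderated over all features. Region was the mean of both within-genotype differences, and genotype the mean of both within-region ones. Detection was tested with Fisher's exact test (scipy 1.17.1), whose smallest possible p here is 0.000583. Benjamini-Hochberg adjustment was over all features, with a threshold of 0.05. The block follows the study's use of matched cultures. Over 16 pairs of libraries sharing a culture number, deviations from group means had a mean correlation of 0.0789 (-0.0980 to 0.271, 4 of them over 0.1), against -0.0269 over 47 other pairs. Scripts were tested on simulated data. Alternatives were no block, no centring, percentiles, width-weighted means, p at most 1e-10, equal list length, narrower promoters, 25% cover, distal within 50 kb, and each library left out. Without centring, the median of all promoters moved by 0.12 (brainstem minus telencephalon in control), so differences are relative to each library's median.

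The genes and the lists were chosen with earlier results of these data known. The text names promoter peaks of each listed gene, though not every start of Myt1 and Myrf. It also names each gene's highest other merged peak found in all libraries. Any merged peak with an unadjusted Fisher p under 0.05 or separating compared groups is named too. All other peaks named were chosen after their values were seen. Of the other regulators the 2 highest and the 2 lowest were to be named, and 1 of these is not reported here. All coordinates are 1-based on mm10, and sequences come from GRCm38.p6, the same assembly.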

Additional observations from a re-analysis of the deposited data

Results flagged for a closer look

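Among the listed genes' peaks, one group of libraries held a value far from the others of that group. At the merged peak chr15:79151580-79154577, at a Polr2f promoter 12.2 kb past the start of Sox10, K27M telencephalon culture 51 had a fold of 3.16, and the other 3 K27M telencephalon libraries lay between 2.73 and 2.77. The gap was 0.926 of the group's range, above the critical value for 4 samples. Control telencephalon culture 61 was higher still, at 3.35, so the value was not extreme over all libraries. It was the only one of 36 groups tested (chance flags about 1 in 20 groups). The same library had the second longest peak list, with 52164 peaks, and the part of list length in this value was not tested.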

How the results depend on the processing

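No call at a listed gene appeared under any alternative run. The alternative that admitted features called in 4 to 9 libraries was chosen after seeing the data. Counts over all features moved as follows. Region at promoters (2 calls) gave 4 without the replicate block, 0 without centring, 0 at p at most 1e-10 and 1 with promoters of 500 bp, and 2 to 6 with 1 library left out (6 without culture 41 of K27M brainstem or of K27M telencephalon). Region in K27M at promoters (3 calls) gave 5 without the block, 0 without centring, with percentiles or at p at most 1e-10, and 0 to 3 with 1 library left out. Region at merged peaks (3 calls) gave 0 without centring, with percentiles and at p at most 1e-10, 1 at equal list length, and 0 to 4 with 1 library left out. Comparisons with 0 calls gave 1 for genotype at promoters with width-weighted means, 1 for region in K27M at merged peaks at equal length and with 25% cover, and 1 for genotype in brainstem at merged peaks without centring. With 1 library left out they gave 0 to 1 for genotype at promoters, 0 to 1 for genotype in brainstem at promoters, 0 to 2 for genotype at merged peaks, 0 to 1 for region in K27M at merged peaks and 0 to 1 for genotype in brainstem at merged peaks. The cause was not tested. The block changed no call at a listed gene, and the exact test stratified by culture gave p = 0.0417 for the farther Nkx6-2 peak, against 0.0152 to 0.0278 where leaving out 1 library still allowed the test. The share of pairs with the promoter above the distal peak was 16% at p at most 1e-10 and 18.1% to 19.8% with 1 library left out. Depth is unknown for every library. Of the 5 promoters called in all 13 libraries, 1 remained so at p at most 1e-10 (Myt1).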
